A study of Mus musculus with 9 samples.

Results

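Heparan sulphate genes and the heparin-binding growth factor gene Ptn were examined in cultured mouse pancreatic stellate cells exposed to tumour organoid conditioned medium with and without a JAK inhibitor. The set held 10 of the 17156 genes in the deposited count table: the sulphatases Sulf1 and Sulf2, the growth factors Ptn and Mdk, the syndecans Sdc1 to Sdc4 and the glypicans Gpc1 and Gpc6. The genes were matched by symbol, and the set was chosen by the low counts of Sulf2 and Ptn in CM against MG-CM. Differences between conditioned and control medium are therefore given for these genes as a description, without a test. All 10 were among the 13613 genes that passed the filter on low counts.

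The libraries formed 3 groups of 3, all from stellate cell lines of C57BL/6J mice after 4 days of culture. CM-JAKi cells grew in conditioned medium of pancreatic tumour organoids with 500 nM AZD1480, a JAK inhibitor. CM cells grew in the same conditioned medium without it, and MG-CM cells grew in the control medium, DMEM with FBS, which the labels also call Matrigel-conditioned. Replicate 1 was line PSC4, and replicates 2 and 3 were PSC5-I and PSC5-II of line PSC5. Each replicate number had its own source of conditioned medium, so line and source cannot be told apart in CM and CM-JAKi. The MG-CM libraries had control medium and no such source. No library with inhibitor in control medium was analysed here, so an action of the inhibitor alone cannot be told apart from one on the response to conditioned medium.

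The libraries were total RNA depleted of ribosomal RNA and held 25625806 to 32466018 counts, with a count in 15678 to 15944 genes. The stellate and fibroblast markers summed to 6849 to 7657 CPM in CM-JAKi, 4476 to 6143 CPM in CM and 5710 to 6298 CPM in MG-CM, with all 12 in the table. Pdgfra, a mesenchymal receptor among them, was at 329 CPM or more in every library. Genes of this list called in the fit, named after their values were seen, went both ways. In CM against MG-CM, Pdpn was higher (log2 change 0.83, edgeR, adjusted p = 0.0208) and Vim lower (-1.03, 0.0415). In CM-JAKi against CM, Pdpn was lower (-1.31, 0.00204), and Col1a1 (0.74, 0.0147) and Col1a2 (1.30, 0.00473) were higher. Of the markers tied to stellate cells, Des lay at 0.924 to 3.32 CPM and Gfap at 0 to 0.185 CPM in the 9 libraries. The epithelial list summed to 28.6 to 45.0 CPM in CM-JAKi, 34.4 to 37.0 CPM in CM and 34.5 to 49.2 CPM in MG-CM, and Epcam and Cdh1 did not exceed 0.180 and 0.209 CPM. Sox9, Krt19 and Muc1 of that list reached 26.1, 25.1 and 16.5 CPM, and Muc1 fell in CM-JAKi against CM by 1.83 ± 0.48 (edgeR, adjusted p = 0.0326). The leukocyte list, of which 6 of 9 genes were in the table, summed to 15.6 to 32.1 CPM in CM-JAKi, 33.6 to 118 CPM in CM and 22.5 to 34.6 CPM in MG-CM. Most of it was Cd14, which fell in CM-JAKi against CM (log2 change -1.74, edgeR, adjusted p = 0.0410). Cd68 lay at 1.34 to 2.40 CPM and Csf1r at 1.05 to 2.07 CPM, while Ptprc stayed at or below 0.0387 CPM.

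Heparan sulphate is a sulphated sugar chain carried by core proteins such as the membrane-spanning syndecans and the lipid-anchored glypicans. Its sulphation pattern sets which growth factors it binds, and it serves many of them as a co-receptor or store. The extracellular enzymes SULF1 and SULF2 remove sulphate groups from finished chains. Pleiotrophin (PTN) and its relative midkine (MDK) are secreted factors that bind these chains and related chondroitin sulphate chains. Stellate cells are a source of matrix-producing fibroblasts in the diseased pancreas.

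Promoters are shown for Sulf2 and Ptn, the genes around which the set was built, and for Sdc3, the member that was lower with the inhibitor than in either other medium. RefSeq entries of build GRCm38.p6 were at hand for 5 of the 10 genes, each running from 250 bases before the start to 50 after it and read 5′ to 3′ on the gene's strand. The 2 Sulf2 windows lie at chr2:166155236-166155535 and chr2:166155634-166155933 on the minus strand, the Ptn window at chr6:36810130-36810429 on the minus strand, and the Sdc3 window at chr4:130792287-130792586 on the plus strand. Capitals mark matches on either strand to the searched motifs: the STAT site TTCNNNGAA, the AP-1 site TGANTCA, the GC box GGGCGG, the TATA box TATAAA and the hypoxia response core ACGTG.
Sulf2, downstream window: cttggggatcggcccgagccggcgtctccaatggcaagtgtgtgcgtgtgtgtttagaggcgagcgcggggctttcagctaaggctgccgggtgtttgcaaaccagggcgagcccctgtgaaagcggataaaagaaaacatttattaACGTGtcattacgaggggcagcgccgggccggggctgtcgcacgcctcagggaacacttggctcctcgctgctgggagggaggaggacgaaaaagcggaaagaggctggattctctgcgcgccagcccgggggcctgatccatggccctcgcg
Sulf2, upstream window: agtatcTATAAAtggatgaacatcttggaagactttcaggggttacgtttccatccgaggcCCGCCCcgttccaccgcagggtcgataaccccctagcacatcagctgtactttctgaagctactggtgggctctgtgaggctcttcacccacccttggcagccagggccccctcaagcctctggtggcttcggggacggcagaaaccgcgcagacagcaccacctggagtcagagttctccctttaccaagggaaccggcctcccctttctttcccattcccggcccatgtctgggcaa
Ptn: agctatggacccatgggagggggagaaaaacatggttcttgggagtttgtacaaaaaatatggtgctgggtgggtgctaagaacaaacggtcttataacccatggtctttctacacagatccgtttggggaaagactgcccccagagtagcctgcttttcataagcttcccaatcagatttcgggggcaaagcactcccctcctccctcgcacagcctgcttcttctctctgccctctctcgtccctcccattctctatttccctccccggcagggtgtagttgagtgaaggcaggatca
Sdc3: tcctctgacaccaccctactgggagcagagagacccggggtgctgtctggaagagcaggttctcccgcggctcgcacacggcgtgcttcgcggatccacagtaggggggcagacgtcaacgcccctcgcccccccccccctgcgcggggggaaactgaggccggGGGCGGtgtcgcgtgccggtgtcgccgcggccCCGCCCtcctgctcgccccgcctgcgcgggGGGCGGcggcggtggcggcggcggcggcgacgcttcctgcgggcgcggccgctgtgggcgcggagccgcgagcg
The downstream Sulf2 window held 1 hypoxia response core and the upstream window held 1 TATA box and 1 GC box. Sdc3 held 3 GC boxes, and the Ptn window held no match to any of the 5 motifs. None of the 6 windows of these genes, with those of Sdc1 and Sdc4 included, held the STAT or the AP-1 letters, which occurred in 8.3% and 7.81% of the 32851 promoters of the table. The GC box occurred in 35.7% of them, the TATA box in 13.6% and the hypoxia response core in 19.6%. A match is a run of letters only, and a missing match says nothing of the factor.

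The sulphatases lay in opposite order in the media. Levels are CPM, counts relative to the scaled library total, given in the order of replicates 1, 2 and 3, and are read between libraries and not between genes. Sulf2 had 74.6, 73.6 and 73.2 CPM in CM-JAKi, 6.85, 11.0 and 6.00 CPM in CM, and 78.7, 98.7 and 55.1 CPM in MG-CM. All CM libraries lay below the other 6, and the CM-JAKi values lay within the range of MG-CM. Sulf1 had 35.4, 26.9 and 36.3 CPM in CM-JAKi, 117, 48.4 and 134 CPM in CM, and 26.4, 12.8 and 21.9 CPM in MG-CM. All CM libraries lay above the other 6, and every CM-JAKi library lay above every MG-CM library. Sulf2 was 9.74-fold lower in CM than in MG-CM by the group means, and Sulf1 4.89-fold higher. Their log2 changes were -3.28 ± 0.27 and 2.29 ± 0.39; here and below the error of a log2 change is its standard error in the fit.

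With the inhibitor, Sulf2 rose against CM by a log2 change of 3.21 ± 0.27 (edgeR quasi-likelihood F-test, adjusted p = 0.000305), in 3 of 3 pairs. The comparison shares its CM libraries with the difference that led to the set, so this p is not independent evidence for Sulf2 or, below, for Ptn. The same holds for their omissions of single libraries. The other members share these CM libraries and were chosen with earlier results of these data known. Their p in this comparison is therefore not independent of the choice either. The Sulf2 call held whichever library was left out, the highest adjusted p being 0.00285. Sulf1 fell by 1.60 ± 0.38 on the log2 scale (edgeR, adjusted p = 0.0223), also in 3 of 3 pairs. The Sulf1 call was lost without CM replicate 1 (adjusted p = 0.0639), CM replicate 3 (0.0583), CM-JAKi replicate 2 (0.0862) or CM-JAKi replicate 3 (0.0562). Against MG-CM, neither was called in CM-JAKi: the log2 change was -0.07 ± 0.24 for Sulf2 (edgeR, adjusted p = 0.965) and 0.69 ± 0.38 for Sulf1 (adjusted p = 0.603).

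The balance of the transcripts within a library needs no scaling. The log2 ratio of Sulf1 to Sulf2 counts was -1.08, -1.45 and -1.01 in CM-JAKi, 4.09, 2.13 and 4.48 in CM, and -1.57, -2.94 and -1.33 in MG-CM. Sulf1 counts thus exceeded Sulf2 counts in the 3 CM libraries and in no other, although the counts are not corrected for transcript length. The lowest CM ratio belonged to PSC5-I, whose MG-CM library also had the lowest ratio of its group. The summed level of both genes was 110.0, 100.5 and 109 CPM in CM-JAKi, 124, 59.5 and 139.9 CPM in CM, and 105, 112 and 77.1 CPM in MG-CM, and these ranges overlapped.

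**Figure D1:**
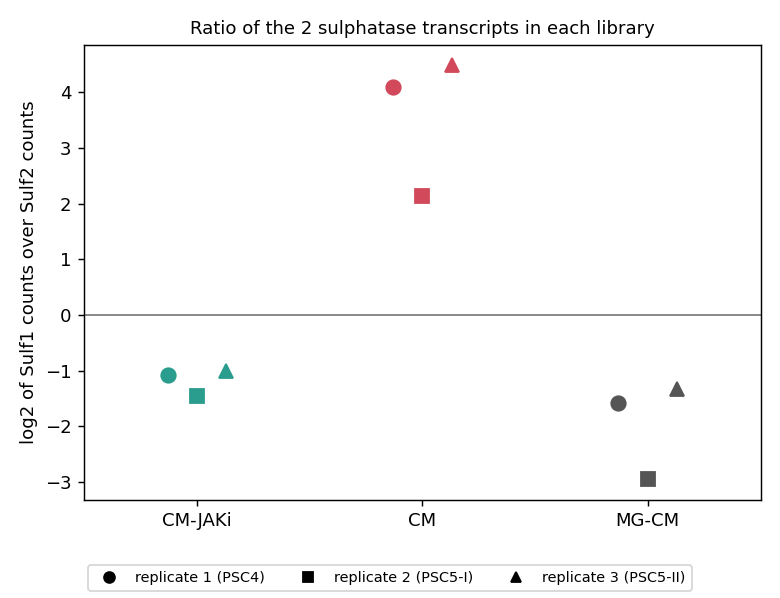
The log2 ratio of Sulf1 counts to Sulf2 counts is plotted for each library by group, with the symbol giving the replicate and the line at 0 equal counts. The CM libraries lie at 2.13 to 4.48 and the CM-JAKi and MG-CM libraries all lie below 0.

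Ptn and Mdk, the heparin-binding growth factors, both had their lowest value in CM within each replicate number, and both were lowest in PSC4 within each group. Ptn had 145, 382 and 289 CPM in CM-JAKi, 5.49, 27.8 and 19.5 CPM in CM, and 139, 355 and 293 CPM in MG-CM. All CM libraries lay below the other 6, and CM-JAKi and MG-CM overlapped. Ptn was 14.9-fold lower in CM than in MG-CM by the means, a log2 change of -3.89 ± 0.64, and the pairs gave -4.64, -3.67 and -3.91. With the inhibitor it rose against CM by 3.95 ± 0.64 (edgeR, adjusted p = 0.00567), and stayed called whichever single library was left out (highest adjusted p = 0.0232). The Ptn call was lost without replicate 2 or 3 as a whole (0.0738 and 0.0847). It held in both omissions with the replicate number as a block in the fit. Against MG-CM the log2 change of CM-JAKi was 0.05 ± 0.56 (edgeR, adjusted p = 0.989), with pairs at 0.07, 0.11 and -0.02.

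Mdk had 1.88, 43.2 and 43.9 CPM in CM-JAKi, 0.834, 13.7 and 10.7 CPM in CM, and 1.30, 22.6 and 15.01 CPM in MG-CM. The groups overlapped, and in each the PSC4 library lay far below the PSC5 libraries, with 61 counts in CM-JAKi, 24 in CM and 38 in MG-CM. Within each replicate number CM-JAKi was highest and CM lowest. The pairs of CM-JAKi against CM were 1.11, 1.66 and 2.02, and those of CM against MG-CM -0.60, -0.72 and -0.48, where the fit gave -0.62 ± 1.24. CM-JAKi against CM was not called (log2 change 1.81 ± 1.26, edgeR, adjusted p = 0.343), nor was CM-JAKi against MG-CM (1.19 ± 1.23, adjusted p = 0.843). With the replicate number as a block, which removes differences of line, both were called, at 1.73 ± 0.18 (adjusted p = 0.000929) and 1.10 ± 0.18 (adjusted p = 0.0204).

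**Figure D2:**
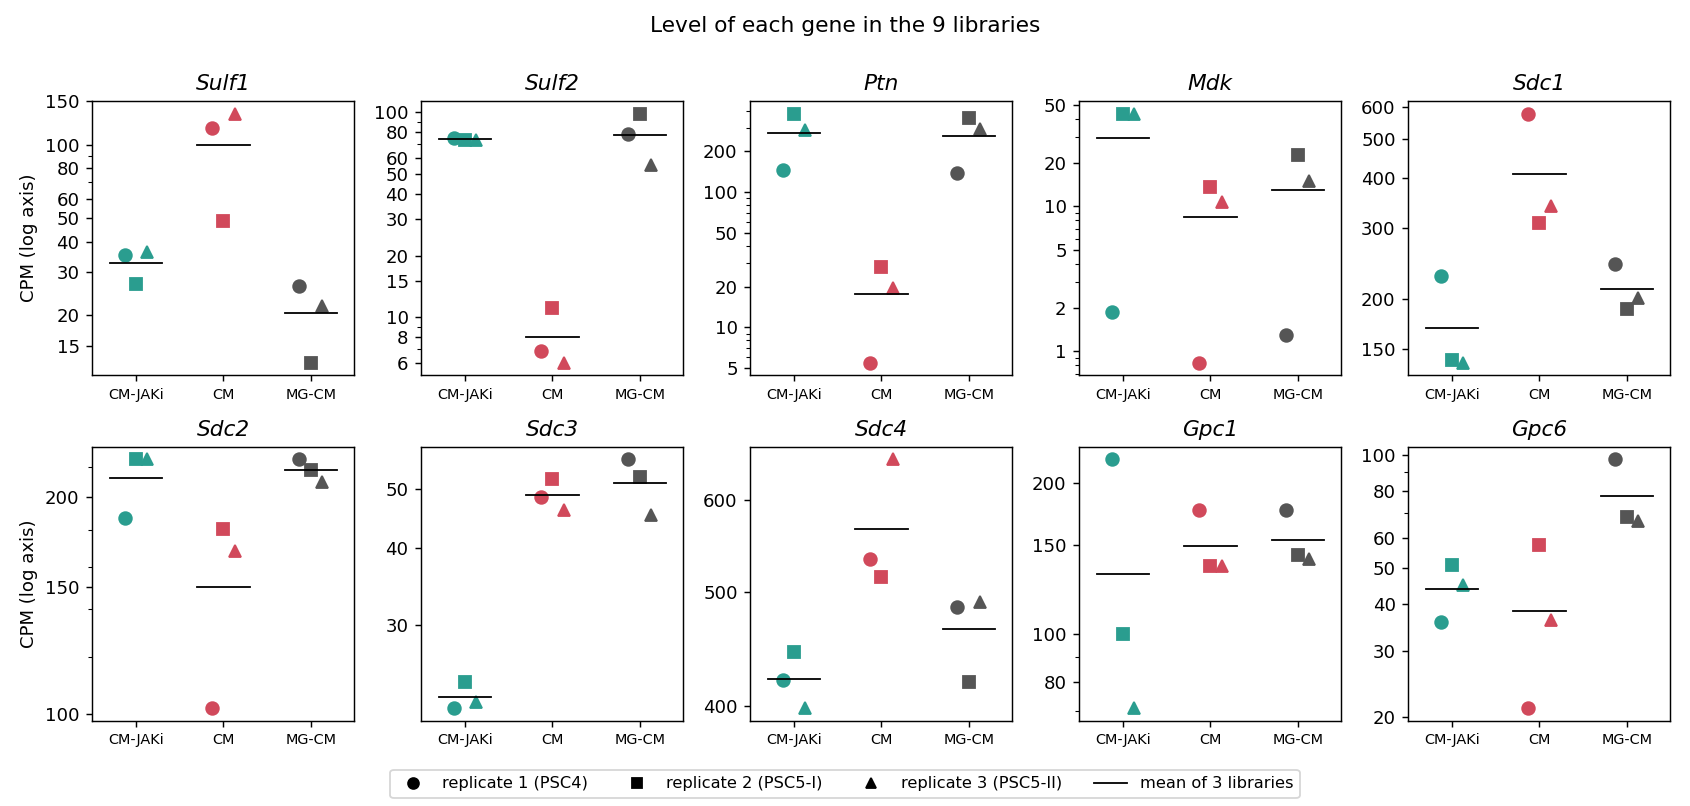
CPM on a log axis is plotted for the 10 genes in each of the 9 libraries, by group, with the symbol giving the replicate and the bar the group mean. Sulf2 and Ptn in CM lie below all other libraries, Sdc3 is low in CM-JAKi alone, and the PSC4 circles of Mdk stand far below the PSC5 symbols.

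Of the syndecans, membrane core proteins of heparan sulphate, Sdc1 and Sdc4 were highest in CM, Sdc2 was lowest there, and Sdc3 was low in CM-JAKi. Sdc1 encodes the syndecan best known from epithelia and plasma cells. It had 228, 140.5 and 139 CPM in CM-JAKi, 579, 309 and 340.3 CPM in CM, and 245, 189 and 201 CPM in MG-CM. All CM libraries were above the other 6, and PSC4 was the highest library of each group. The log2 change of CM against MG-CM was 0.95 ± 0.28. With the inhibitor Sdc1 fell against CM by 1.28 ± 0.28 (edgeR, adjusted p = 0.0163), a call lost without CM-JAKi replicate 2 (0.0677) or CM-JAKi replicate 3 (0.0564). Against MG-CM the CM-JAKi change was -0.32 ± 0.27 (edgeR, adjusted p = 0.792).

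Sdc3, a syndecan known in rodent neurons as a binding partner of pleiotrophin, had 22.0, 24.2 and 22.5 CPM in CM-JAKi, 48.5, 51.9 and 46.2 CPM in CM, and 55.8, 52.2 and 45.3 CPM in MG-CM. The CM-JAKi libraries lay below all 6 others, which overlapped with each other. Sdc3 fell with the inhibitor by 1.09 ± 0.10 against CM (edgeR, adjusted p = 0.000419) and by 1.16 ± 0.10 against MG-CM (adjusted p = 0.00225). Both calls held whichever library was left out (highest adjusted p = 0.00356 against CM and 0.0212 against MG-CM). The pairs of CM against MG-CM were -0.20, -0.01 and 0.03. Both comparisons with CM-JAKi share its libraries.

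Sdc4, a syndecan of focal adhesions, had 421, 445 and 398 CPM in CM-JAKi, 534, 516 and 650.3 CPM in CM, and 486, 419 and 491 CPM in MG-CM. The CM libraries were above the other 6, and CM-JAKi and MG-CM overlapped. The log2 change of CM against MG-CM was 0.28 ± 0.12 for Sdc4. Sdc4 fell by 0.43 ± 0.12 in CM-JAKi against CM (edgeR, adjusted p = 0.0381). That call was lost without CM replicate 1 (0.0577), CM replicate 3 (0.0958), CM-JAKi replicate 1 (0.0701), CM-JAKi replicate 2 (0.0855), CM-JAKi replicate 3 (0.107) or MG-CM replicate 3 (0.0565), with library size as the only scaling (0.0789), and in a fit of these groups alone (0.0666). Against MG-CM, CM-JAKi gave -0.14 ± 0.12 for Sdc4 (edgeR, adjusted p = 0.786).

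Sdc2, a syndecan of mesenchymal cells, had 187, 226 and 226 CPM in CM-JAKi, 102, 180.3 and 168 CPM in CM, and 225, 218 and 209 CPM in MG-CM. The CM libraries were below the other 6, and the PSC4 library of CM was the lowest of all. The pairs of CM against MG-CM were -1.14, -0.27 and -0.32 for Sdc2. CM-JAKi against CM was not called for Sdc2 (log2 change 0.50 ± 0.19, edgeR, adjusted p = 0.10) but was with the block (0.52 ± 0.16, adjusted p = 0.0441). Against MG-CM, CM-JAKi gave -0.03 ± 0.19 (edgeR, adjusted p = 0.983). The 4 syndecans summed to 857, 835 and 785 CPM in CM-JAKi, 1264, 1057 and 1205 CPM in CM, and 1011, 878 and 947 CPM in MG-CM, so that the sums of the groups did not overlap.

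The glypicans, core proteins held by a lipid anchor, were not called in either comparison of CM-JAKi with all 9 libraries. Gpc1, a glypican that binds fibroblast growth factors, had 223, 99.8 and 71.0 CPM in CM-JAKi, 177, 137 and 136 CPM in CM, and 177, 144 and 141 CPM in MG-CM. The 6 CM and MG-CM values overlapped, whereas CM-JAKi held both the highest and the lowest library. CM-JAKi against CM gave -0.19 ± 0.36 for Gpc1 (edgeR, adjusted p = 0.746), with pairs at 0.34, -0.45 and -0.94. Without CM-JAKi replicate 1, the PSC4 library, the Gpc1 change was -0.81 and was called (adjusted p = 0.0260). Against MG-CM the change was -0.23 ± 0.36 (edgeR, adjusted p = 0.906).

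Gpc6, a glypican of mesenchyme and growth plate, had 35.9, 51.0 and 45.1 CPM in CM-JAKi, 21.2, 57.4 and 36.3 CPM in CM, and 97.5, 68.5 and 66.6 CPM in MG-CM. Every MG-CM library lay above the other 6, and CM-JAKi and CM overlapped. CM-JAKi gave 0.20 ± 0.32 against CM (edgeR, adjusted p = 0.703) and -0.82 ± 0.32 against MG-CM (adjusted p = 0.393). CM against MG-CM averaged -1.02 ± 0.32, and the pairs were -2.20, -0.25 and -0.88.

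**Figure D3:**
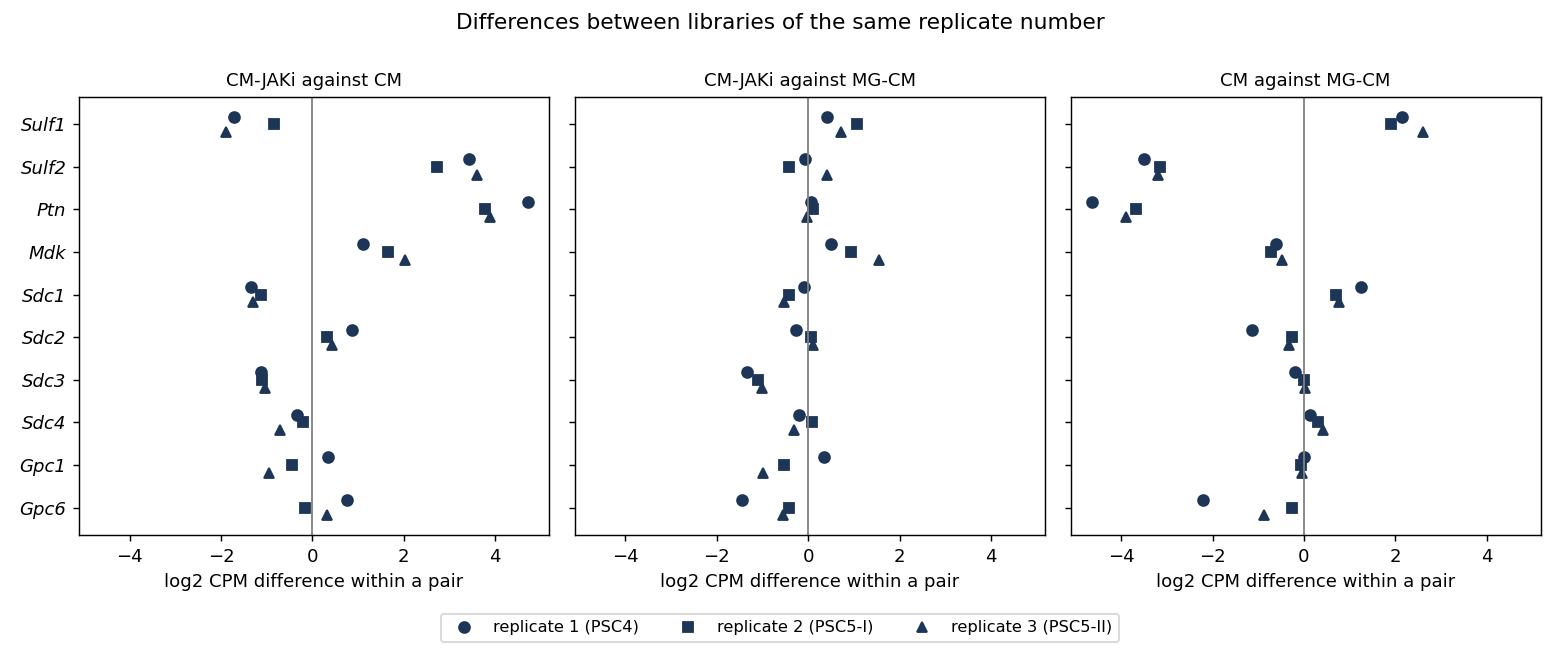
Differences in log2 CPM between libraries of the same replicate number are plotted for the 10 genes in the 3 comparisons, with the symbol giving the replicate. Sulf2 and Ptn lie right of 0 in CM-JAKi against CM, left of 0 in CM against MG-CM and on both sides of 0 in CM-JAKi against MG-CM, whereas Sdc3 lies left of 0 in both comparisons of CM-JAKi.

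By count, 6 of the 10 genes were called in CM-JAKi against CM, against 19.0% of all genes tested, with 2 higher and 4 lower (10.1% and 8.93% of all genes). The 2 higher were Sulf2 and Ptn, which were chosen for their low values in these same CM libraries, so nothing is read from that count either way. With library size as the only scaling the split of all genes was 13.6% higher and 6.35% lower. Without CM-JAKi replicate 2, 3 of the 10 were called (7.20% of all genes), and without CM-JAKi replicate 3 also 3 (11.0%). In CM-JAKi against MG-CM 1 of the 10 was called, Sdc3, against 1.01% of all genes in either direction and 0.720% lower. With the block the counts were 8 of 10 (34.2% of all genes) and 2 of 10 (4.25%). Between CM and MG-CM, the contrast that chose the set, 3 of the 10 passed the same threshold, with 10.2% of all genes, and nothing is read from that count. It was 6 with the block (24.4%), 6 by DESeq2 (17.2%) and 1 without MG-CM replicate 2 (0.949%). The 3 libraries of each group did not overlap for 7 genes in CM-JAKi against CM (38.3% of all genes), for 3 in CM-JAKi against MG-CM (17.1%) and for 7 in CM against MG-CM (32.7%). CM was below all other libraries for Sulf2, Ptn and Sdc2, where 11.9% of all genes were, and above them for Sulf1, Sdc1 and Sdc4, where 11.0% were. The choice of the set on CM against MG-CM bears on these counts too, and nothing is read from them. In bulk libraries, fewer cells with a transcript and less transcript per cell cannot be told apart.

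Levels of Mdk, Ptn, Gpc1 and Sdc1 lay apart between the stellate lines. The mean of the PSC5 libraries exceeded PSC4 for Mdk by 23.2-fold in CM-JAKi, 14.6-fold in CM and 14.4-fold in MG-CM. For Ptn it exceeded PSC4 by 2.30-fold, 4.30-fold and 2.34-fold in the same groups. For Gpc1 PSC4 exceeded the PSC5 mean by 2.61-fold in CM-JAKi, 1.29-fold in CM and 1.24-fold in MG-CM. For Sdc1 PSC4 exceeded it by 1.63-fold in CM-JAKi, 1.79-fold in CM and 1.25-fold in MG-CM. PSC4 is a single library in each group, so these ratios have no error of their own and were not tested. For Sulf2 the PSC5 mean over PSC4 was 0.984 in CM-JAKi, 1.24 in CM and 0.977 in MG-CM, and for Sdc4 it was 1.00, 1.09 and 0.937.

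Genes with profiles most like those of Sulf2 and Ptn were ranked by the root mean square difference between log2 CPM profiles over the 9 libraries, each centred on its own mean, among 10241 genes. The nearest to Sulf2 was Aff3, a nuclear transcription regulator, at 0.346, followed by Mtss1, an actin-binding protein, at 0.451. Smad9, a transducer of BMP signals, followed at 0.459, Daam2, a formin, at 0.474 and Atoh8, a transcription factor, at 0.513. The nearest to Ptn were Lmod1 and Acta2, both genes of contractile cells, at 0.662 each. Npr3, a clearance receptor for natriuretic peptides, followed at 0.734, Adam23 at 0.748 and Sema3d, a secreted semaphorin, at 0.762. Sulf2 and Ptn differed from each other by 0.819, so neither was among the 5 nearest of the other. This likeness is a description of 9 libraries in 3 groups and 2 lines.

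Genes that make, modify, carry, cut or bind heparan sulphate, or build the related chondroitin and dermatan sulphates, were read from 8 lists with 103 tested genes. In CM-JAKi against CM 28 of these were called, 27.2% against 19.0% of all genes, with 15 higher and 13 lower. In CM against MG-CM 14 were called, 13.6% against 10.2% of all genes, with 7 higher and 7 lower. In CM-JAKi against MG-CM 1 was called, 0.971% against 1.01% of all genes. With the replicate number as a block 43 of the 103 were called in CM-JAKi against CM (41.7%, against 34.2% of all genes), 41 in CM against MG-CM (39.8%, against 24.4%) and 5 in CM-JAKi against MG-CM (4.85%, against 4.25%). Without each library in turn, 7 of the 28 kept their call (Agrn, Chst12, Ctgf, Itga6, Mmp9, Ndst2 and Vegfa), 2 of the 14 (Angptl4 and Chst11), and 0 of 1. Over all genes tested, the median log2 change was 0.0080 in CM-JAKi against CM, 0.0058 in CM against MG-CM and 0.0054 in CM-JAKi against MG-CM.

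Chain synthesis was read from 12 tested genes of chain start and polymerase. In CM-JAKi against CM 0 rose and 2 fell, with a median of 0.02. Ext1, a subunit of the chain polymerase, fell by 0.54 ± 0.14 (edgeR, adjusted p = 0.0318) and Xylt1, which adds the first sugar to the core protein, fell by 1.41 ± 0.37 (0.0331). At an unadjusted p under 0.05, 1 was higher, and DESeq2 called 0 higher. The Ext1 call was lost without CM replicate 1, CM replicate 3, CM-JAKi replicate 1, CM-JAKi replicate 2, MG-CM replicate 2 or MG-CM replicate 3 (adjusted p up to 0.0957), and the Xylt1 call without CM replicate 1, CM replicate 2, CM-JAKi replicate 2, CM-JAKi replicate 3 or MG-CM replicate 3 (up to 0.103). Between CM and MG-CM 1 gene was called, Ext1, at 0.53 ± 0.14 (edgeR, adjusted p = 0.0490), and 6 were with the block. That Ext1 call held only without CM replicate 2 or without CM-JAKi replicate 1, with an adjusted p of up to 0.149 in the other 7 omissions. Extl1, a related glycosyltransferase, gave 2.38 ± 0.67 there (edgeR, adjusted p = 0.0570, and 0.0400 with the block), and Extl3 -0.35 ± 0.11 (0.0719, and 0.0296 with the block). DESeq2 called both there (adjusted p = 0.00926 for Extl1 and 0.0246 for Extl3). Extl1 lay low, at 0.227 to 0.474 CPM in MG-CM and 0.492 to 3.72 CPM in CM.

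Chain modification was read from 17 tested genes, of which 2 were higher and 2 lower in CM-JAKi against CM, with a median of -0.0037. Ndst2 and Ndst3 encode enzymes that replace acetyl by sulphate on the chain. Ndst2 fell by 0.50 ± 0.09 (edgeR, adjusted p = 0.00694). Ndst3 fell by 1.29 ± 0.28 (edgeR, adjusted p = 0.0163), a call lost without CM-JAKi replicate 2 or 3 (0.0549 and 0.0563). Ndst4, of the same family, had 0.523, 2.51 and 2.20 CPM in CM-JAKi, 0.0348, 0.0310 and 0.328 CPM in CM, and 0.0686, 0.305 and 0.417 CPM in MG-CM. It was called higher in CM-JAKi than in CM (edgeR, adjusted p = 0.0287), a call lost without CM replicate 1 or 2 or CM-JAKi replicate 2 or 3 (up to 0.0918), and with the block it was called against MG-CM too (adjusted p = 0.0257, against 0.268 without). Papss1, which makes the sulphate donor, was the other gene called higher and is named after its value was seen (log2 change 0.37, edgeR, adjusted p = 0.0345); its call was lost without CM replicate 1 or 2, CM-JAKi replicate 2 or 3, or MG-CM replicate 3 (up to 0.135). Ndst3 was also the gene called in CM against MG-CM, at 1.33 ± 0.28 (edgeR, adjusted p = 0.0242), a call lost without MG-CM replicate 1 (0.0657) or MG-CM replicate 2 (0.104). With the block 6 genes were called there, among them Ndst2 (log2 change 0.30, edgeR, adjusted p = 0.0351, against 0.0584 without) and Papss1 (-0.35, 0.0156, against 0.0601). DESeq2 without the block also called Ndst2 (adjusted p = 0.0153) and Papss1 (0.0172) there.

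Chain degradation was read from 11 tested genes, of which 3 were higher and 1 lower in CM-JAKi against CM, with a median of 0.26. Hpse, the heparanase that cuts chains outside the cell, fell by 2.04 ± 0.49 (edgeR, adjusted p = 0.0231), with 14.9, 5.18 and 5.18 CPM in CM-JAKi, 51.2, 24.0 and 29.4 CPM in CM, and 25.7, 12.2 and 16.7 CPM in MG-CM. Its call was lost without CM replicate 1 (0.0689), CM-JAKi replicate 2 (0.0836) or CM-JAKi replicate 3 (0.0703). Against MG-CM, Hpse in CM-JAKi was not called (-1.11 ± 0.48, edgeR, adjusted p = 0.459) but was with the block (-1.21 ± 0.16, adjusted p = 0.0117). The lysosomal sulphatases Arsg (1.41 ± 0.29, edgeR, adjusted p = 0.0128) and Ids (0.61 ± 0.14, 0.0196) rose with the inhibitor against CM. Arsg lost this call without CM-JAKi replicate 2 (0.0521), and Ids without CM replicate 2 (0.0543) or CM-JAKi replicate 2 (0.0654). Gusb, a lysosomal glucuronidase named after its value was seen, was also called (log2 change 0.37, edgeR, adjusted p = 0.0419), a call lost on leaving out any CM or CM-JAKi library or MG-CM replicate 1 (up to 0.119). Both sulphatases fell in CM against MG-CM, Arsg by 1.10 ± 0.29 (edgeR, adjusted p = 0.0447) and Ids by 0.72 ± 0.14 (0.0192). Arsg lost that call whichever of the 9 libraries was left out (up to 0.169), Ids without MG-CM replicate 1 or 2 (0.0526 and 0.0817), and 4 genes were called with the block.

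Other heparan sulphate core proteins were read from 8 tested genes. Agrn, the basement membrane proteoglycan agrin, fell in CM-JAKi against CM by 1.28 ± 0.18 (edgeR, adjusted p = 0.00278) and stayed called whichever library was left out. Gpc2, a glypican of developing neurons, rose by 1.35 ± 0.28 (edgeR, adjusted p = 0.0143), a call lost without CM-JAKi replicate 2 (0.0558). Gpc4 gave -1.09 ± 0.36 (edgeR, adjusted p = 0.0656, and 0.00188 with the block, where 4 genes of the list were called). DESeq2 called Gpc4 too (adjusted p = 0.0114). Agrn was also called in CM against MG-CM, at 0.89 ± 0.17 (edgeR, adjusted p = 0.0197), a call lost without MG-CM replicate 2 (0.0715) or MG-CM replicate 3 (0.0515). With the block 3 genes were called there, among them Srgn, the core protein serglycin (log2 change 1.25, edgeR, adjusted p = 0.0301, against 0.176 without). Srgn lay low, at 0.474 to 1.17 CPM in MG-CM and 1.54 to 1.88 CPM in CM. The list's median was -0.10 in CM-JAKi against CM and 0.03 in CM against MG-CM.

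Enzymes that release or cut core proteins, and their inhibitors, were read from 9 tested genes, with a median of 0.25 in CM-JAKi against CM. Mmp9, a metalloproteinase that sheds syndecans, rose there by 1.73 ± 0.32 (edgeR, adjusted p = 0.00865), and Timp3, a matrix-bound inhibitor of such enzymes, by 1.44 ± 0.37 (0.0295). Pcsk5, a proprotein convertase, fell by 2.12 ± 0.51 (edgeR, adjusted p = 0.0231). It lay at 0.0616 to 0.239 CPM in CM-JAKi, 0.620 to 0.869 CPM in CM and 0.114 to 0.343 CPM in MG-CM, so few counts carry its changes. The Timp3 call was lost without CM replicate 1, 2 or 3 or CM-JAKi replicate 2 (up to 0.0933), and the Pcsk5 call without CM replicate 1 or CM-JAKi replicate 2 or 3 (up to 0.0660). With the block 6 genes of the list were called. Timp3 fell in CM against MG-CM by 1.82 ± 0.37 (edgeR, adjusted p = 0.0224) and Notum, a secreted esterase that acts on Wnt proteins bound to glypicans, by 1.86 ± 0.49 (0.0458). Notum lay low, at 0.459 to 0.651 CPM in CM and 0.834 to 2.64 CPM in MG-CM. Timp3 lost this call without CM replicate 1 or 3 or MG-CM replicate 1 or 2 (up to 0.0705), and Notum without CM replicate 1, 2 or 3, CM-JAKi replicate 2 or MG-CM replicate 1 or 2 (up to 0.154). With the block 5 genes were called, among them Pcsk5 (log2 change 1.63, edgeR, adjusted p = 0.0476, against 0.0698 without).

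Receptors and binding partners of pleiotrophin and midkine were read from 11 tested genes, with a median of -0.11 in CM-JAKi against CM. Ptprz1, the receptor phosphatase of pleiotrophin, had 2.43, 4.25 and 7.43 CPM in CM-JAKi, 1.95, 0.682 and 0.951 CPM in CM, and 0.686, 1.39 and 0.985 CPM in MG-CM. It rose against CM by 1.98 ± 0.51 (edgeR, adjusted p = 0.0307), a call lost without CM replicate 2 or 3 or CM-JAKi replicate 2 or 3 (up to 0.0939). Itga6, a laminin-binding integrin subunit, fell by 0.97 ± 0.18 (edgeR, adjusted p = 0.00816). Ncl, nucleolin, fell by 0.79 ± 0.23 (edgeR, adjusted p = 0.0451), a call lost without CM replicate 1 or 3, CM-JAKi replicate 2 or 3, and MG-CM replicate 2 or 3 (up to 0.142). Between CM and MG-CM 0 of the 11 were called by edgeR and 0 by DESeq2, with 3 above and 0 below at an unadjusted p under 0.05, and 4 were called with the block, among them Itga4, an integrin subunit (log2 change 2.26, edgeR, adjusted p = 0.0406, against 0.143 without). Itga4 lay at only 0.0338 to 0.549 CPM in MG-CM and 1.24 to 2.05 CPM in CM. In CM-JAKi against MG-CM 0 were called by edgeR, whereas DESeq2 called Ptprz1 higher (adjusted p = 0.00247, against 0.107 by edgeR).

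Heparin-binding ligands other than the members were read from 19 tested genes, with a median of -0.0028 in CM-JAKi against CM, where 4 rose and 2 fell. Vegfa, the vascular growth factor, fell by 1.37 ± 0.23 (edgeR, adjusted p = 0.00699) and Ctgf, a matricellular protein, rose by 1.62 ± 0.32 (0.0122). Cyr61, of the same family as Ctgf, rose by 0.92 ± 0.24 (edgeR, adjusted p = 0.0317), a call lost without CM replicate 1 or 2 or CM-JAKi replicate 2 or 3 (up to 0.108). The other calls, named after their values were seen, were Bmp4, Cxcl12 and Grem1. Bmp4, a bone morphogenetic protein, had 26.5, 1.86 and 1.62 CPM in CM-JAKi, 0.765, 0.155 and 0.0656 CPM in CM, and 10.8, 2.27 and 1.67 CPM in MG-CM, with the PSC4 library highest in each group. Its call against CM (log2 change 4.94 ± 1.46, edgeR, adjusted p = 0.0463) was lost without any 1 of 7 libraries, the exceptions being MG-CM replicate 1 and CM-JAKi replicate 3 (up to 0.144). Cxcl12, a chemokine, gave 0.85 ± 0.23 (edgeR, adjusted p = 0.0372), lost without CM replicate 1 or 2, CM-JAKi replicate 1, 2 or 3, or MG-CM replicate 2 (up to 0.0963). Grem1, a secreted BMP antagonist, gave -0.97 ± 0.26 (edgeR, adjusted p = 0.0332), lost without CM replicate 1, 2 or 3, CM-JAKi replicate 2, or MG-CM replicate 2 or 3 (up to 0.0793). Angptl4, a secreted lipase inhibitor, rose in CM against MG-CM by 2.53 ± 0.29 (edgeR, adjusted p = 0.00638), Vegfa by 1.23 ± 0.23 (0.0184) and Ctgf fell by 1.61 ± 0.32 (0.0215). Vegfa lost that call without MG-CM replicate 2 (0.0829) and Ctgf without MG-CM replicate 1 or 2 (0.0556 and 0.0874). Fgf7 and Cyr61, named after their values were seen, were the other calls there (log2 changes 0.67 and -1.20, adjusted p = 0.0292 and 0.0220 by edgeR), Fgf7 being lost without CM replicate 1 or 3 or MG-CM replicate 1 or 2 (up to 0.120) and Cyr61 without CM replicate 2 or MG-CM replicate 2 or 3 (up to 0.0893). With the block 9 genes were called. Angptl4 was also the call in CM-JAKi against MG-CM, at 2.03 ± 0.29 (edgeR, adjusted p = 0.0167), a call lost without MG-CM replicate 1 or 2 or CM-JAKi replicate 2 or 3 (0.0531 to 0.0702). Fgf7 gave 0.67 ± 0.15 in that comparison (edgeR, adjusted p = 0.0965, and 0.0370 with the block). DESeq2 called 4 genes of the list higher and 1 lower there. Among the higher were Fgf7 (adjusted p = 0.00395) and Fgf1 (0.0368, against 0.237 by edgeR).

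Chondroitin and dermatan sulphate synthesis was read from 16 tested genes, with a median of -0.05 in CM-JAKi against CM and 0.10 in CM against MG-CM. Chst11 and Chst12 encode sulphotransferases of chondroitin. Chst11 had 95.9, 94.9 and 95.0 CPM in CM-JAKi, 384, 146 and 243 CPM in CM, and 61.5, 45.1 and 49.2 CPM in MG-CM, and the groups did not overlap. Chst11 rose in CM against MG-CM by 2.31 ± 0.30 (edgeR, adjusted p = 0.00838) and fell in CM-JAKi against CM by 1.44 ± 0.30 (0.0135), the second call being lost without CM-JAKi replicate 2 (0.0544). Chst12 fell in CM against MG-CM by 0.63 ± 0.11 (edgeR, adjusted p = 0.0137), a call lost without MG-CM replicate 2 (0.0635), and rose in CM-JAKi against CM by 0.57 ± 0.11 (0.00954). Ust, a uronyl sulphotransferase, rose by 0.60 ± 0.12 in CM-JAKi against CM (edgeR, adjusted p = 0.0131), a call lost without CM-JAKi replicate 2 (0.0585). Csgalnact1, named after its value was seen, fell by 1.46 there (edgeR, adjusted p = 0.0381), a call lost without CM replicate 1 or 3, CM-JAKi replicate 2 or 3, or MG-CM replicate 2 or 3 (up to 0.129). With the block, 4 genes were called in CM against MG-CM, among them Chsy3, a chondroitin synthase (log2 change 1.22, edgeR, adjusted p = 0.0327, against 0.0772 without). Chsy3 lay low, at 0.274 to 0.372 CPM in MG-CM and 0.558 to 0.904 CPM in CM.

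**Figure D4:**
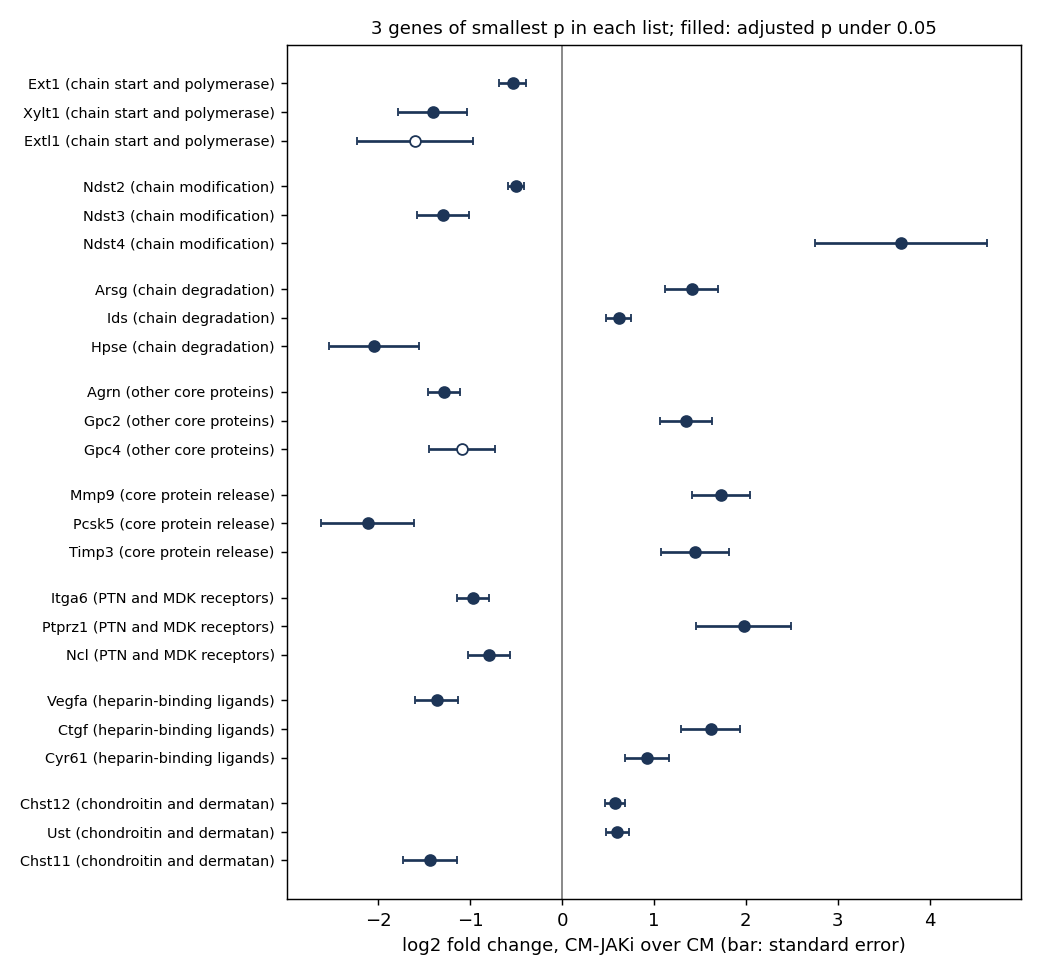
The log2 fold change of CM-JAKi over CM is plotted with its standard error for the 3 genes of smallest p in each of the 8 lists, filled where the adjusted p was under 0.05. Hpse, Agrn and Vegfa lie left of 0, Arsg, Mmp9 and Ctgf lie right of it, and Extl1 and Gpc4 are open.

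Marker sums of other cell types lay apart between the groups for the endothelial list. For the neural list they overlapped between CM and MG-CM, and CM-JAKi lay above both. The endothelial list, 7 of 7 genes in the table, summed to 8.93 to 16.2 CPM in CM-JAKi, 3.15 to 4.62 CPM in CM and 6.18 to 8.47 CPM in MG-CM. CM was thus lowest in the sum, as for Sulf2 and Ptn, but not in each gene of the list. Over its 5 tested genes the median log2 change of CM-JAKi against CM was -0.23, with a range of -0.83 to 8.96. Its defining genes Pecam1 and Cdh5 did not exceed 0.527 and 0.521 CPM in any library, and Cldn5 was at 0 in 5 libraries. Emcn, a sialomucin of endothelium, led the sum in CM-JAKi, with 6.31, 12.8 and 3.52 CPM there, 0, 0 and 0.0328 CPM (1 count in all) in CM, and 0.926, 0.914 and 0.531 CPM in MG-CM. It was called higher in CM-JAKi than in CM and in MG-CM (edgeR, adjusted p = 0.000487 and 0.0280) and lower in CM than in MG-CM (0.0114). Tek, an angiopoietin receptor, reached 2.90 CPM at most and rose in CM-JAKi against CM by 1.39 ± 0.34 (edgeR, adjusted p = 0.0255) and fell in CM against MG-CM by 1.67 ± 0.34 (0.0224). The Schwann and neural list, 8 of 8 genes, summed to 75.9 to 89.8 CPM in CM-JAKi, 44.2 to 73.2 CPM in CM and 69.3 to 73.6 CPM in MG-CM, led by Ncam1, while Sox10 did not exceed 0.232 CPM. Ncam1 was called higher in CM-JAKi than in CM (log2 change 0.68, edgeR, adjusted p = 0.0311). The part of these markers in the results for Sulf2, Ptn and Ptprz1 was not tested.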

How the data were processed

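The authors deposited a table of gene counts for the 9 libraries. These were taken to be expected counts that the authors rounded to whole numbers and left unscaled across libraries, since RSEM 1.2.29 is named and the values are whole. STAR 2.5.1b, DESeq2 and the builds NCBIM37 and mm9 are also named, per the submitters' processing notes, without their roles. The kit was stranded, per the labels' protocols. How reads shared by near-identical genes were divided is not given in the sources used here.

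The counts went into edgeR 4.0.16 and limma 3.58.1 under R 4.3.3. Genes passed filterByExpr (minimum count 10, minimum total 15), libraries were scaled by TMM, and all 9 entered a robust quasi-likelihood model with 1 coefficient per group. Each comparison had an F-test, its p-values were adjusted by Benjamini-Hochberg over the 13613 genes, and an adjusted p under 0.05 made a call. CPM were computed here, and the log2 CPM of pairs and profiles used a prior count of 2. The code was tested on simulated counts. DESeq2 1.42.0 and other settings served as alternatives.

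The members, lists and markers were chosen with earlier results of these data known. Genes named were all members, the 3 of smallest p per list and comparison, and the 5 most like Sulf2 and Ptn among genes averaging 2 or more on the log2 CPM scale. Values of p measure the spread between 3 separate cultures per group, of which 2 are of line PSC5. Libraries of 1 replicate number share a line, and their deviations from group means correlated at 0.291 to 0.680 over the 9 same-number pairs, against -0.536 to 0.279 for other pairs. The replicate number thus pairs the libraries, and the fit with it as a block is given where it changed a call, apart from 1 result not reported here. Replicates of a group differed by a chi-square per degree of freedom of 15.3 to 109, so none was counted as a duplicate. Promoter sequences are from RefSeq, build GRCm38.p6, which is not the files' build, so no other coordinates are given.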

Additional observations from a re-analysis of the deposited data

Results flagged for a closer look

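For Gpc1 and Sdc2 the log2 CPM difference of the PSC4 pair had the opposite sign to those of both PSC5 pairs. For Gpc1 the PSC4 pair was at 0.34 in CM-JAKi against CM, with the PSC5 pairs at -0.45 and -0.94. In CM-JAKi against MG-CM the PSC4 pair of Gpc1 was also at 0.34, with the PSC5 pairs at -0.53 and -0.99. In CM against MG-CM it was at 0.0012, at 177 CPM in both libraries and thus no difference to speak of, with the PSC5 pairs at -0.07 and -0.05. For Sdc2 the PSC4 pair was at -0.27 in CM-JAKi against MG-CM, with the PSC5 pairs at 0.05 and 0.11. The differences between lines were not tested, and line and medium source cannot be told apart.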

How the results depend on the processing

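Each comparison was recomputed under other models, scalings and filters and without each library or replicate number. Leaving out a replicate number together with the block was chosen after seeing the data. With the replicate block, which the pairing of libraries by line allows, 3325 genes were called in CM against MG-CM (1394 without it), 4655 in CM-JAKi against CM (2585) and 579 in CM-JAKi against MG-CM (137). A term for cell line gave 3216, 4532 and 523. DESeq2 gave 2486 in CM against MG-CM and 504 in CM-JAKi against MG-CM, and fits of the compared groups alone gave 793 in CM against MG-CM and 1655 in CM-JAKi against CM. Of the 10 genes of the set, 6 were called in CM against MG-CM by the block, the line term and DESeq2, with 24.4%, 23.6% and 17.2% of all genes. Without these 3 were called (10.2%). This contrast chose the set, so nothing is read from those counts. In CM-JAKi against MG-CM 2 were called by the block and the line term, with 4.25% and 3.84% of all genes, and 1 without (1.01%).

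Without a library or a replicate number, 8 to 1713 genes were called in CM against MG-CM, 256 to 2970 in CM-JAKi against CM and 0 to 465 in CM-JAKi against MG-CM. These were 0.0586% to 12.6%, 1.88% to 21.8% and 0 to 3.42% of all genes, with 1 to 4, 2 to 7 and 0 to 3 of the 10 members. With the block as well, 480 to 2788, 1432 to 4193 and 21 to 995 genes were called. These were 3.52% to 20.5%, 10.5% to 30.8% and 0.153% to 7.31% of all genes, with 4 to 6, 6 to 9 and 1 to 4 members. Nothing is read from the counts of members. The 0 genes are by edgeR without replicate 3, where 738 had an unadjusted p under 0.05. Without replicate 2 or 3 as a whole, the Ptn call in CM-JAKi against CM was lost (edgeR, adjusted p = 0.0738 and 0.0847), as was the Sdc3 call in CM-JAKi against MG-CM (0.0782 and 0.0988). Sulf1 lost its call against CM without replicate 1 or 3 (0.0832 and 0.174) and Sdc1 without replicate 2 or 3 (0.131 and 0.123). With the block, these calls of Ptn, Sdc3, Sulf1 and Sdc1 all held in the same omissions. The Sdc4 call against CM was lost with the block without replicate 2 or 3 (edgeR, adjusted p = 0.0713 and 0.204). Log2 changes turned sign in omissions only for genes not called with all libraries. In CM against MG-CM, with and without the block, Mdk lay between -1.16 and 0.061, Gpc1 between -0.17 and 0.079 and Sdc3 between -0.15 and 0.0067. In CM-JAKi against CM, Gpc1 lay between -0.81 and 0.10 and Gpc6 between -0.10 and 0.61. In CM-JAKi against MG-CM, Sulf2 lay between -0.27 and 0.15 (0.0019 and 0.17 with the block, without replicate 1 or 2), Ptn between -0.27 and 0.35, Sdc2 between -0.10 and 0.080 (0.081 with the block, without replicate 1), Gpc1 between -0.85 and 0.064 and Mmp2 between -0.12 and 1.87. The cause was not tested. Library size as the only scaling moved the median log2 change of all genes to -0.07, 0.10 and 0.03 in the 3 comparisons, ended the Sdc4 call, and moved the share of calls that were higher to 68.2% in CM-JAKi against CM (53.0% with TMM) and 35.8% in CM against MG-CM (47.3%). In PSC4 the 24 to 61 Mdk counts limit what its values show.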
